A study of Mus musculus with 20 samples.

Results

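The cytosolic ribosomal protein genes were followed in the neocortex of ageing mice and of old mice fed vitamin E. Members were the genes whose platform symbols begin with Rpl or Rps followed by a digit or p. Left out were Rpl27a, S6 kinases, pseudogenes, retrotransposed copies, the binding protein Rps19bp1 and the biogenesis factor Rpl7l1. Each member was read on its brightest probe set with a single gene symbol. There were 46 such genes of 18193 with a probe set of this kind, and 43 of them were among the 13351 genes bright enough to be tested. The tested members were 19 genes of the small (40S) subunit, 19 of the large (60S) subunit, 2 genes of the ribosomal stalk and 3 paralogs. The other 3 members were Rpl3l, the muscle paralog of Rpl3, Rpl39l, a paralog of Rpl39 known from testis, and Rps16, a 40S protein. Their signals were 9.2 to 150.8, 13.9 to 247.2 and 3.2 to 6.3 over the 20 arrays, and their mean signals were below the limit of 184 used for testing, so no comparison is given for them. Rps16 had only 1 probe set with a single symbol, so its low signal does not show that the transcript is scarce. A further 29 ribosomal protein symbols, among them the stalk gene Rplp1, lay on probe sets that name several genes and could not be assigned to one gene.

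All mice were male B6C3F1 hybrids, housed singly, and each of the 4 groups held 5 mice with 1 array per mouse. Mixture mice were 30 months old and had eaten 500 mg/kg α-tocopherol together with 500 mg/kg γ-tocopherol since 15 months of age. The α-tocopherol mice were 30 months old and had received 1000 mg/kg of that form alone since 15 months. Old control mice were 30 months old and young control mice 5 months old, and neither group had a supplement added to the control feed, so old control mice are the baseline of both supplements and the aged arm of the age comparison. The design addresses how ageing changes expression in the brain and how vitamin E begun in middle age affects it.

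The eukaryotic ribosome joins a small subunit, which reads the messenger RNA, to a large subunit, which forms the peptide bond, and its proteins are made in matched amounts. Their messenger RNAs are abundant and typically carry a terminal oligopyrimidine (TOP) tract, a C at the cap followed by an unbroken run of C and T, through which signalling by mTOR controls their translation. In neurons, ribosomes lie in the cell body and also in dendrites and axons.

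TOP tracts were looked for in the RefSeq promoter windows of assembly GRCm38.p6, which matched 40 of the 46 members by symbol, at the first start listed for each gene. A tract was a C followed by at least 4 further C or T on the sense strand. It began exactly at the annotated start in 8 of 40 members (20%), against 2.5% of the 27025 genes of the table. Within 5 bases of the start it was found in 19 of 40 members (47.5%), against 18.5% of all genes. The 30 bases around the start, 10 before it and 20 from it on, are shown for the 6 members that passed the test with age in both scalings described below, and for Rps27, the gene of which Rps27l is a paralog. Capitals mark the tract where one was found, and a sequence without capitals has none within reach of this annotated start.
Rpl10a: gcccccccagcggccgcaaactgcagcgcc
Rpl13a: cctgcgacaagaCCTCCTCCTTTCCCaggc
Rpl35: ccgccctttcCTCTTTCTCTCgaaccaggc
Rps3: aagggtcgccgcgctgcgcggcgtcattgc
Rps19: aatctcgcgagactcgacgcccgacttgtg
Rps27l: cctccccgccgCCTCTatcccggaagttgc
Rps27: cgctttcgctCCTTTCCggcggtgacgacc
The windows were chr17:28328461-28328490 on the plus strand for Rpl10a, chr7:45128726-45128755 on the minus strand for Rpl13a and chr2:39005112-39005141 on the minus strand for Rpl35. They were chr7:99483690-99483719 on the minus strand for Rps3, chr7:24884582-24884611 on the plus strand for Rps19, chr9:66946076-66946105 on the plus strand for Rps27l and chr3:90213629-90213658 on the minus strand for Rps27. Rpl35 had the longest of the tracts that begin at the start itself among those shown, 11 bases, and the tract of Rpl13a, 14 bases, began 2 bases after it. Rps27l had a tract of 5 bases beginning 1 base after its start, and Rps27 one of 7 bases at its start.

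Every array had a 2% trimmed mean of 1000, set before deposit, and the median signal averaged 308 ± 17 in mixture, 296 ± 15.3 in α-tocopherol, 292 ± 12.4 in old control and 321 ± 6.2 in young control mice (SD, n = 5 each). The β-actin 3'/5' ratio, a measure of RNA quality, averaged 1.43 ± 0.145, 1.67 ± 0.392, 2.04 ± 0.336 and 1.52 ± 0.137 in mixture, α-tocopherol, old control and young control mice. The Gapdh 3'/5' ratio ranged over 0.752 to 0.855, 0.804 to 0.985, 0.911 to 1 and 0.829 to 0.951 in the same order. The 18S control signal ranged over 393 to 611.8, 419.6 to 1272, 719.5 to 1078 and 259.3 to 487.7. Old control mice thus lay above mixture mice in both, and above young control mice in 18S, without overlap. The part of Gapdh and 18S in the members' values was not tested. The neocortical markers Slc17a7 and Camk2a had signals of at least 7185 and 16147 on every array. The choroid plexus gene Ttr ranged from 8129 to 50082 among old control mice, which included the lowest and highest of all 20 arrays. Signals were compared as deposited and again after quantile normalization, which gives all arrays the same distribution, and values are as deposited unless stated otherwise.

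The members were a visible share of all signal. They made up 1.08% ± 0.0932 of the summed signal in mixture, 1.23% ± 0.0907 in α-tocopherol, 1.27% ± 0.0763 in old control and 1.08% ± 0.0336 in young control mice (SD, n = 5 each). The median deviation of the 43 members from their means over all mice was -0.252 to 0.0159 (log2) in mixture mice, -0.0455 to 0.237 in α-tocopherol mice, 0.0211 to 0.265 in old control mice and -0.193 to -0.0663 in young control mice. Old control mice thus lay above young control mice without overlap, and mixture mice lay below old control mice without overlap. After quantile normalization the ranges were -0.0756 to 0.114 in mixture, -0.00333 to 0.0555 in α-tocopherol, 0.0239 to 0.0482 in old control and -0.08 to 0.0106 in young control mice. The old and young control mice still did not overlap, whereas the mixture mice reached from below to above the old control mice.

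**Figure D1:**
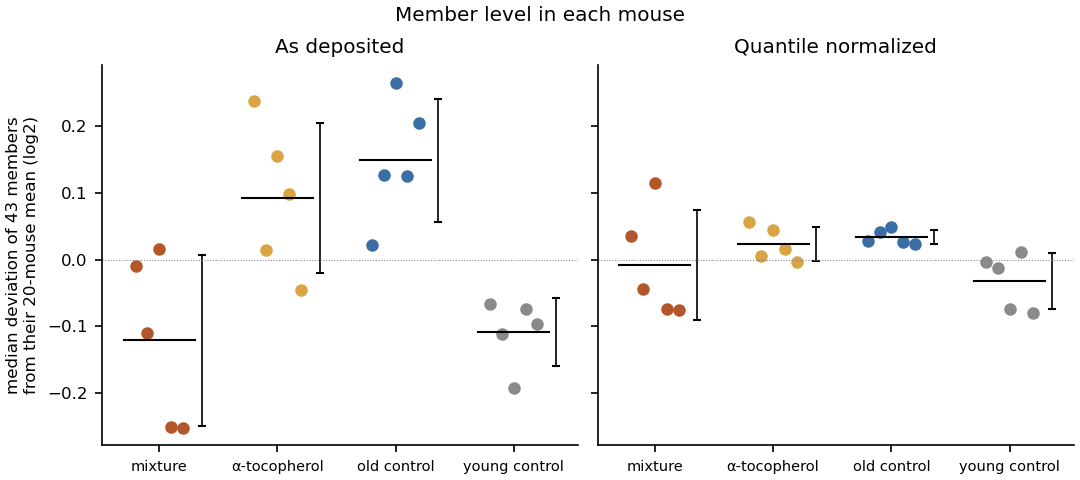
Median log2 deviation of the 43 tested members from their 20-mouse mean (vertical axis) in each mouse, by group, as deposited (left) and after quantile normalization (right). Points are mice, horizontal lines group means and the bars beside them ± 1 SD; as deposited, old control mice lie above young control mice and above mixture mice, and after quantile normalization all mice lie between -0.08 and 0.114.

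With age, ribosomal protein messenger RNAs of both subunits were higher as deposited, and most of them did not pass after quantile normalization. Of the 43 tested members, 25 rose and 2 fell in old control against young control mice (limma, Benjamini-Hochberg adjusted over all genes, threshold 0.05), beside 12.4% of all tested genes that rose and 10.4% that fell. The median log2 fold change of the members was 0.26, against -0.022 over all tested genes, and 36 members had a positive value. After quantile normalization 6 members rose and 2 fell, beside 12% and 9.06% of all genes, and the median was 0.041. Members that rose in both scalings were Rps19, Rpl35, Rpl13a, Rps3 and Rpl10a, and Rps27l fell in both. The same 6 passed with cyclic loess normalization, among 10 rises and 1 fall, beside 12.2% and 8.96% of all genes. The median of the members was then 0.10. All 5 old control mice lay above all 5 young control mice for 22 members and below them for 2, beside 9.14% and 7.42% of all genes. After quantile normalization this held for 8 members above and 3 below, beside 8.7% and 6.79%.

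**Figure D2:**
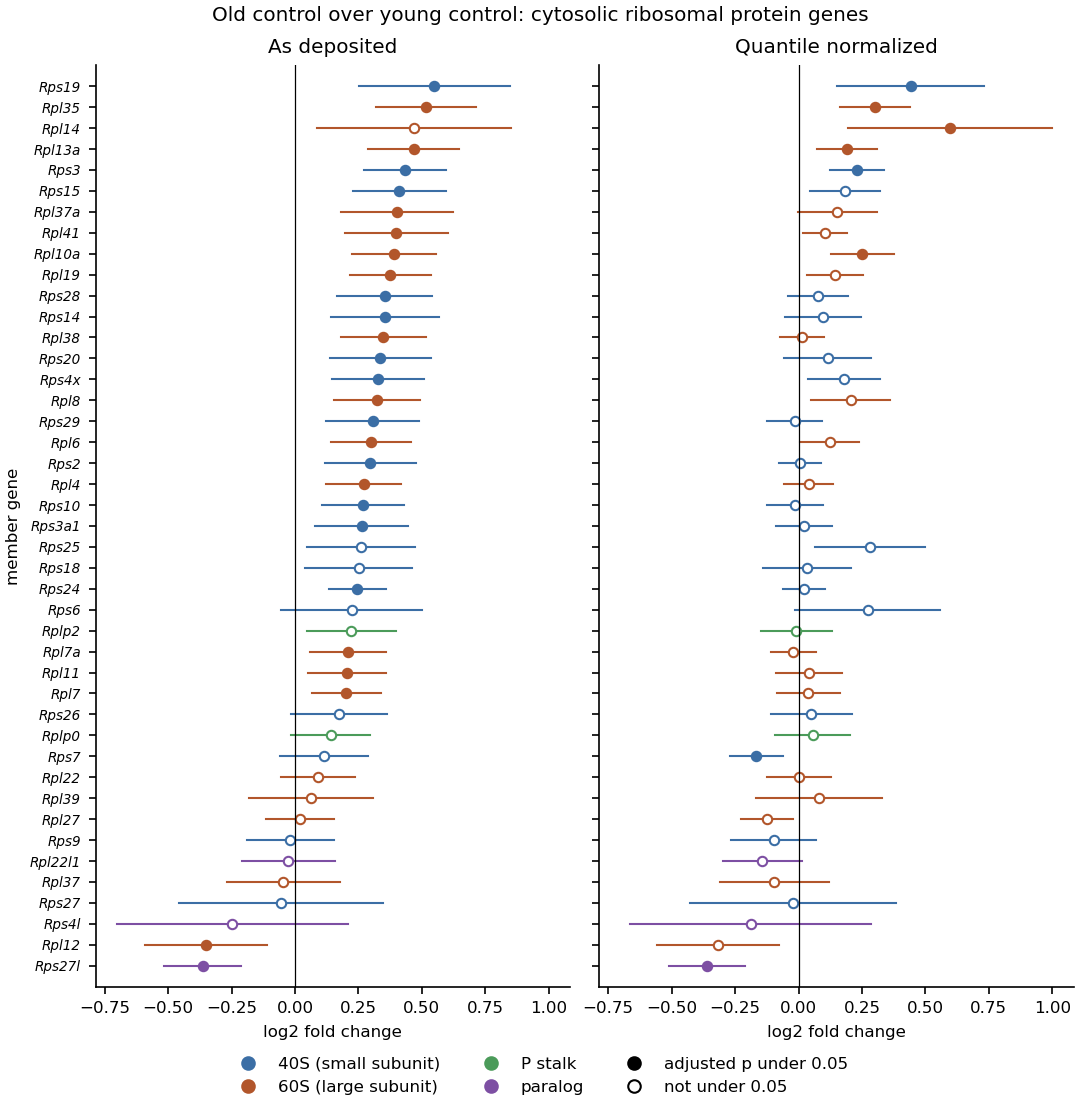
Log2 fold change of old control over young control (horizontal axis) for each of the 43 tested members, with 95% confidence intervals, as deposited (left) and after quantile normalization (right), in the order of the deposited values. Filled points have a limma adjusted p under 0.05 and colours give the subunit; 25 members rose and 2 fell as deposited, 6 rose and 2 fell after quantile normalization, and 6 signs turned.

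Rps19, a 40S protein whose loss causes Diamond-Blackfan anaemia in humans, had the largest rise. Its signals in old control mice were 11793, 13308, 15063, 14237 and 11749, against 9940, 7800, 9773, 9933 and 7822 in young control mice. No old control mouse was as low as any young control mouse, and the log2 fold change was 0.55 ± 0.144 SE (limma adjusted p = 0.00889) as deposited and 0.44 ± 0.14 SE (adjusted p = 0.0274) after quantile normalization.

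Rpl35, a 60S protein beside the exit of the peptide tunnel, had 21294, 21095, 27970, 22170 and 23292 in old control mice, against 16704, 15383, 14905, 17536 and 16135 in young control mice. The groups did not overlap, and the log2 fold change was 0.52 ± 0.0959 SE (limma adjusted p = 0.000801), or 0.30 ± 0.0667 SE (adjusted p = 0.00291) after quantile normalization. Rpl35 was measured by 6 probe sets, and the one ending in plain _at, with a mean signal of 331.5, had a log2 fold change of -0.0047. Others of its probe sets lay at 0.033, 0.056, 0.34 and 0.39, so the size of its rise depended on the probe set.

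Rps3, which lines the messenger RNA entry of the 40S subunit and also acts in DNA repair, had 19189, 20078, 22974, 19962 and 22603 in old control mice, against 16921, 15071, 14985, 15524 and 14993 in young control mice. The groups were fully apart, with a log2 fold change of 0.43 ± 0.0788 SE (limma adjusted p = 0.000677) as deposited and 0.23 ± 0.0521 SE (adjusted p = 0.00357) after quantile normalization. Its dimmer probe sets had -1.12 and 0.35, neither of which passed (limma adjusted p = 0.0849 and 0.0693 over all probe sets).

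Rpl13a, a 60S protein that can leave the ribosome to silence inflammatory messenger RNAs, as described in human monocytes, had 28333, 30578, 33596, 29380 and 33192 in old control mice, against 23933, 21494, 20945, 23404 and 22232 in young control mice. Its log2 fold change was 0.47 ± 0.0872 SE (limma adjusted p = 0.000811) as deposited and 0.19 ± 0.0576 SE (adjusted p = 0.0223) after quantile normalization, with the groups apart in both. Rpl10a, a protein of the L1 stalk through which spent transfer RNA leaves, had 13992, 14581, 18159, 15522 and 16620 in old control mice, against 12031, 12722, 11824, 12599 and 10798 in young control mice. These groups did not overlap either, at 0.39 ± 0.0798 SE (limma adjusted p = 0.00157) and 0.25 ± 0.0602 SE (adjusted p = 0.00544). Rpl10a lies outside the rule for named genes and was added after its values were seen.

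Rps27l went the other way. It is a paralog of Rps27 that p53 induces in human cells, and its signals were 2909, 2667, 2489, 2617 and 2781 in old control mice, against 3452, 3747, 3298, 3496 and 3355 in young control mice. Every old control mouse was below every young control mouse, with a log2 fold change of -0.36 ± 0.0736 SE (limma adjusted p = 0.00145) and -0.36 ± 0.0724 SE (adjusted p = 0.00154) after quantile normalization. All 3 of its probe sets fell, by 0.33, 0.36 and 0.33 on the log2 scale. Rps27 itself had a log2 fold change of -0.055 ± 0.194 SE (limma adjusted p = 0.867), on a probe set that is not the brightest listing this gene.

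**Figure D3:**
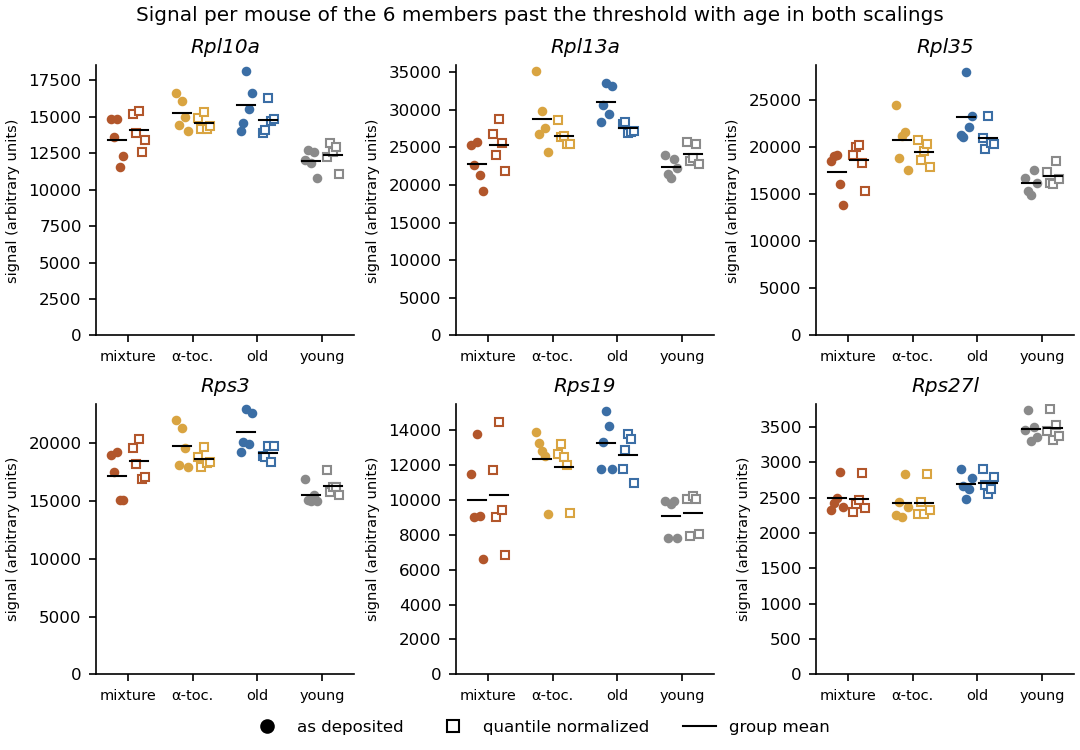
Signal in arbitrary units (vertical axis, from 0) of the 6 members that passed the age test in both scalings, in each mouse of the mixture, α-tocopherol (α-toc.), old control (old) and young control (young) groups. Filled circles are deposited values, open squares quantile normalized values and lines group means; Rps27l is lower in all 5 old control than in all 5 young control mice, and the other 5 genes are higher.

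The other members called with age as deposited did not pass after quantile normalization. The 2 with the next largest rises in the naming rule were Rps15, a protein of the 40S head, at 0.41 ± 0.0893 SE (limma adjusted p = 0.00248, and 0.0512 after quantile normalization), and Rpl37a, a zinc-binding 60S protein, at 0.40 ± 0.107 SE (adjusted p = 0.00985, and 0.149). Over all alternatives the adjusted p lay between 0.000276 and 0.0512 for Rps15 and between 0.00201 and 0.569 for Rpl37a. Rpl12, at the base of the stalk, fell by 0.35 ± 0.116 SE (limma adjusted p = 0.0322), with 847 to 1006 in old control and 1125 to 1317 in young control mice, and had an adjusted p of 0.0533 after quantile normalization. The probe set read here is not the brightest that lists Rpl12, and over the alternatives the adjusted p lay between 0.00756 and 0.2. Quantile normalization added Rpl14, a 60S protein, at 0.60 ± 0.195 SE (limma adjusted p = 0.0321), and turned the sign of Rps7, a 40S protein that binds the p53 regulator Mdm2. Rpl14 was read at a mean signal of 300, whereas a probe set that lists it with other genes had 16900. Rps7 was at 0.11 ± 0.0839 SE (adjusted p = 0.349) as deposited and at -0.17 ± 0.0502 SE (adjusted p = 0.0219) after normalization. Over the alternatives the adjusted p was 0.0252 to 0.309 for Rpl14 and 0.0219 to 0.965 for Rps7.

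By role, 12 of 19 members of the 40S subunit rose and none fell, with a median of 0.27, and 13 of 19 of the 60S subunit rose and 1 fell, with a median of 0.30. Neither stalk gene passed: Rplp0, the scaffold of the stalk, had 0.14 ± 0.0748 SE (limma adjusted p = 0.177), and Rplp2, which recruits elongation factors, had 0.22 ± 0.0845 SE (adjusted p = 0.0607), with its sign turned to -0.0082 by quantile normalization. Rps6, the 40S protein phosphorylated by S6 kinases, had 0.22 ± 0.134 SE (adjusted p = 0.239), and the paralog Rpl22l1 had -0.026 ± 0.089 SE (adjusted p = 0.864). Rps6 was read at a mean signal of 705, whereas a probe set that lists it with other genes had 28400. After quantile normalization the 40S and 60S medians were 0.051 and 0.079.

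Most members are bright, and bright genes as a whole moved in the same direction as deposited. Among the 1335 brightest tested genes, the 1300 that are not members had 430 rises and 58 falls as deposited, with a median log2 fold change of 0.12, and 224 rises and 168 falls with a median of -0.0079 after quantile normalization. The 35 members among them had 25 rises, no fall and a median of 0.30, and the 8 dimmer members had no rise, 2 falls and a median of 0.0039. Of the dimmer members, Rpl12, Rpl14, Rpl39, Rps25, Rps27 and Rps6 were dim on the probe set read here, with mean signals of 300 to 1490. Probe sets that list them with other genes had 11000 to 28400, so these members are not shown to be dim transcripts. These 1335 genes do not all match the members in brightness, so they were divided into 5 bands of signal, a division chosen after the values were seen. In the highest band, with mean signals from 15260, 19 of 22 members rose, with a median of 0.32, and so did 145 of 245 other genes, with a median of 0.23. After quantile normalization the medians in this band were 0.058 for the members and -0.018 for the other genes. In the band below it, with mean signals from 10720, 6 of 9 members rose, with a median of 0.205. Of the 258 other genes in that band 82 rose, with a median of 0.107. After quantile normalization these 2 medians were 0.051 and -0.013. The bands further down held 3, 0 and 1 members. The part that the common shift of bright genes has in the members' values was not tested. Fitted together with the β-actin ratio, 4 members rose and 1 fell, beside 4.75% and 3.92% of all genes, with a median of 0.18. Without old control mice 3 and 5, which have the lowest and highest Ttr, 9 rose and 2 fell, beside 8.92% and 6.45% of all genes, with a median of 0.20. In bulk tissue, fewer cells of a type and less RNA per cell cannot be told apart. Markers of other cell types moved with age as well: 8 of 8 astrocyte, 8 of 9 microglia, 4 of 6 oligodendrocyte and 6 of 9 neuronal markers rose, and 1 microglia marker fell. After quantile normalization 5 astrocyte, 8 microglia, 3 oligodendrocyte and 2 neuronal markers rose, 1 microglia and 1 neuronal marker fell, and the neuronal median was -0.0071 in place of 0.24. Summed astrocyte marker signals were 110200 to 129400 in old control and 80960 to 85290 in young control mice, and summed microglia signals were 26330 to 29620 in old control and 15990 to 17210 in young control mice. Summed oligodendrocyte signals were 78600 to 95780 in old control and 60020 to 72670 in young control mice, and summed neuronal signals 157400 to 187600 in old control and 147300 to 154600 in young control mice. The part of these cell types in the members' rise was not tested.

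**Figure D4:**
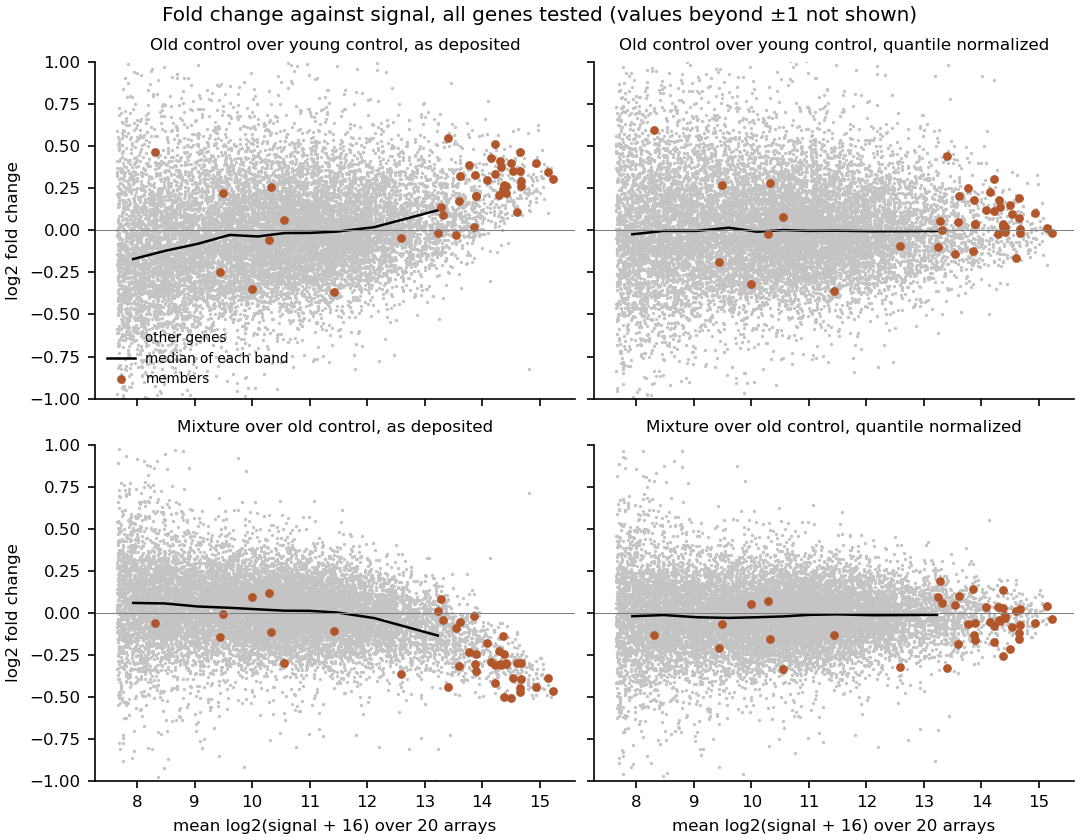
Log2 fold change (vertical axis) against mean log2(signal + 16) over 20 arrays (horizontal axis) for the tested genes with values within ±1 (grey), with the median of each of 10 bands of equal size (line) and the 43 members (orange), for old control over young control (top) and mixture over old control (bottom), as deposited (left) and after quantile normalization (right). As deposited the brightest band has a median of 0.12 with age and -0.14 with the mixture, and most members lie further to the right, where the other genes shift more than that median; after quantile normalization the lines run near 0.

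Probe sets that name several genes gave the same direction as deposited. Of the 100 such probe sets that list a ribosomal protein symbol, each tested on its own, 41 rose and 2 fell with age, beside 9.33% and 9.54% of all probe sets, and 11 rose and 4 fell after quantile normalization, beside 8.97% and 7.68%. Among the 19 members with over 1 tested probe set, 7 had a probe set of opposite sign to the chosen one, Rpl35, Rpl37a and Rps3 among them. By TOP tract, the 19 tested members with a tract within 5 bases of the annotated start had 8 rises, 2 falls and a median of 0.22, and the 18 with a window and no tract had 12 rises, no fall and a median of 0.29. After quantile normalization these medians were 0.014 and 0.089.

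Of 2 ribosomal proteins under other symbols, Rpsa, also known as the laminin receptor, rose by 0.64 ± 0.106 SE (limma adjusted p = 0.000328) and Fau, the precursor of Rps30, by 0.48 ± 0.0848 SE (adjusted p = 0.000509), and both passed after quantile normalization. Of the genes around translation, 11 of 35 translation factors (31.4%) rose and none fell as deposited, beside the 12.4% of all genes that rose, and 3 rose (8.57%) and none fell after quantile normalization, beside 12%. Eef1d, a subunit of the exchange factor for eEF1A, rose by 0.83 ± 0.146 SE (adjusted p = 0.000495). Of 60 ribosome biogenesis genes, 2 rose (3.33%) and 9 fell (15%), beside 12.4% and 10.4% of all genes, and 3 rose and 9 fell after quantile normalization. The smallest p among the falls belonged to Ltv1, a 40S assembly factor, at -0.41 ± 0.0785 SE (adjusted p = 0.000984). Of 27 mTOR and S6 kinase signalling genes 9 rose and 2 fell, or 7 and 1 after quantile normalization, among them Eef2k, the kinase of elongation factor 2, at 0.58 ± 0.126 SE (adjusted p = 0.00247), and Rps6kb2, an S6 kinase, at -0.54 ± 0.115 SE (adjusted p = 0.0021). Of 76 mitochondrial ribosomal protein genes, 5 rose (6.58%) and 11 fell (14.5%), and 6 rose and 11 fell after quantile normalization.

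With the mixture, members were lower than in old control mice as deposited, as were other bright genes, and none passed after quantile normalization. Of the 43, 19 fell and none rose, beside 3.16% of all genes that fell and 1.36% that rose, and 39 had a negative value, with a median of -0.30 against 0.0011 for all genes. At an unadjusted p under 0.05, 30 were lower and none higher, beside 10.9% and 8.23% of all genes. All 5 mixture mice lay below all 5 old control mice for 12 members, beside 3.7% of all genes, and above them for none, beside 2.09%. After quantile normalization no member was called (limma, smallest adjusted p 0.093), beside 0.389% of all genes called lower and 0.232% higher, and the median was -0.062. At an unadjusted p under 0.05, 10 members were then lower and 3 higher, beside 9.91% and 6.82% of all genes. In that scaling all 5 mixture mice lay below all 5 old control mice for 0 members and above them for 1, beside 356 and 209 of the 13351 genes. Cyclic loess normalization also called none. These mice are compared with the same old control animals as in the age comparison, so the 2 sets of values are not independent.

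Rpl37a had 23052, 19254, 23646, 17014 and 15608 in mixture mice, against 23791, 25973, 33364, 27796 and 28023 in old control mice. The groups were apart, with a log2 fold change of -0.50 ± 0.107 SE (limma adjusted p = 0.0118), and it was -0.21 ± 0.0749 SE (adjusted p = 0.138) after quantile normalization. Rps18, a protein of the 40S head, had 20048, 17816, 20426, 17460 and 13330 in mixture mice, against 24158, 25342, 25294, 25585 and 24568 in old control mice. Every mixture mouse lay below every old control mouse, at -0.50 ± 0.102 SE (adjusted p = 0.00949), and -0.26 ± 0.0832 SE (adjusted p = 0.111) after quantile normalization. Over the alternatives the adjusted p was 0.00761 to 0.709 for Rpl37a and 0.00947 to 0.731 for Rps18. Another probe set of Rpl37a had the opposite sign with the mixture. This was so for 6 of the 19 members with over 1 tested probe set: Rpl22, Rpl35, Rpl37a, Rpl7, Rps3 and Rps9.

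Rps28, a small 40S protein, had 24109, 22244, 24471, 20466 and 18723 in mixture mice, against 27053, 30398, 32348, 30700 and 31863 in old control mice. Rps29, a zinc-binding 40S protein, had 36515, 33112, 33500, 31136 and 27184 in mixture mice, against 39124, 43513, 47707, 43949 and 48245 in old control mice. Neither gene overlapped between the groups, and both had a log2 fold change of -0.47 (SE 0.0909 and 0.0886, limma adjusted p = 0.00917 for each), which became -0.16 and -0.038 with quantile normalization. Rpl13a, at 25305, 22641, 25684, 21388 and 19198 in mixture mice, was below the old control mice throughout (-0.45 ± 0.0872 SE, limma adjusted p = 0.00932), and had -0.12 ± 0.0576 SE (adjusted p = 0.287) after quantile normalization. Rpl41, the smallest ribosomal protein, had -0.44 ± 0.0982 SE (limma adjusted p = 0.0161), with 24128 to 28473 in mixture and 30986 to 45402 in old control mice, and -0.062 ± 0.0419 SE (adjusted p = 0.486) after quantile normalization. Over the alternatives the adjusted p was 0.0066 to 0.691 for Rpl13a and 0.00762 to 0.731 for Rpl41.

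**Figure D5:**
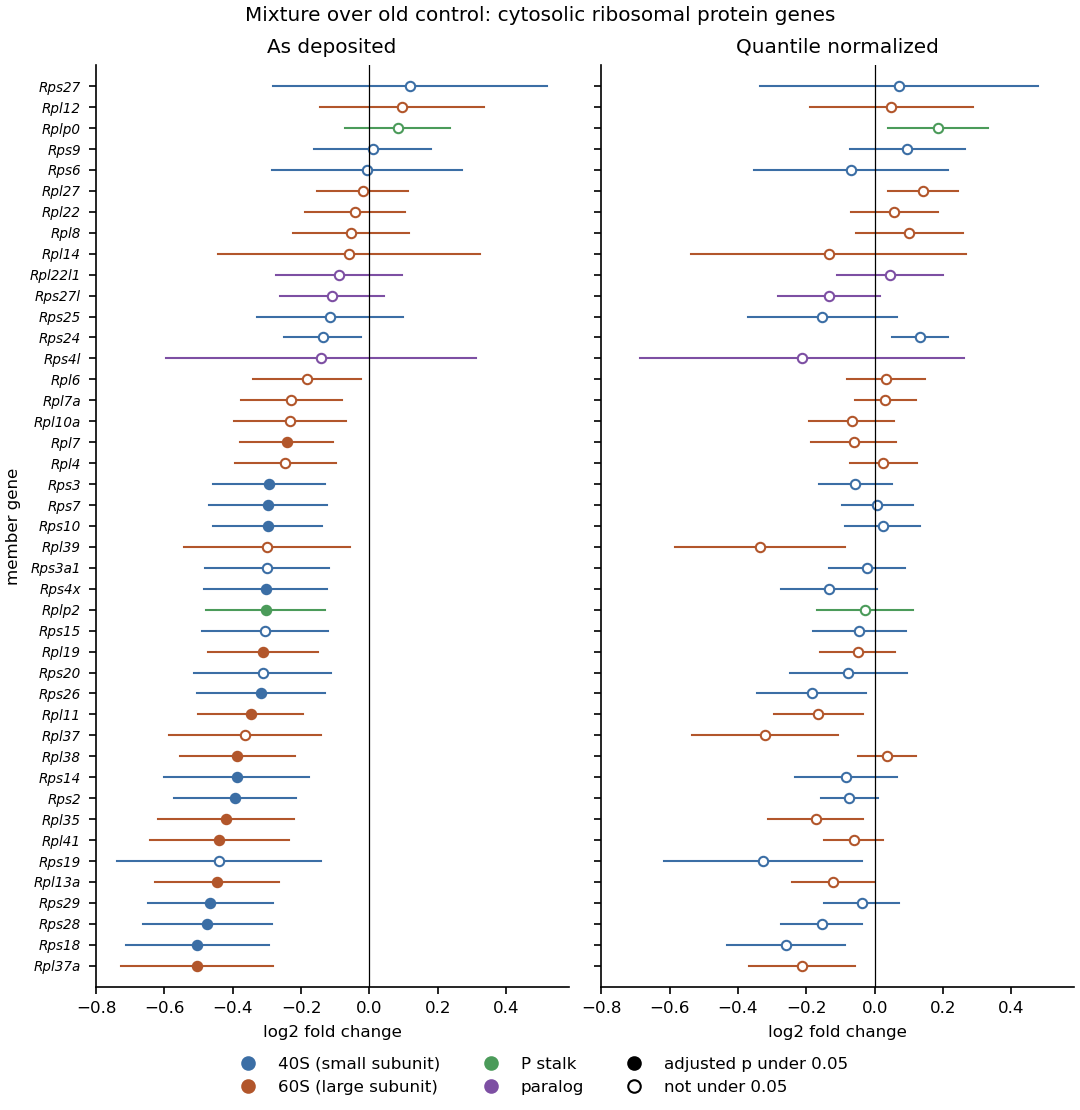
Log2 fold change of mixture over old control (horizontal axis) for each of the 43 tested members, with 95% confidence intervals, as deposited (left) and after quantile normalization (right), in the order of the deposited values. Filled points have a limma adjusted p under 0.05 and colours give the subunit; 19 members fell as deposited, none passed after quantile normalization, and 11 signs turned.

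By role, 10 of 19 members of the 40S subunit, 8 of 19 of the 60S subunit and 1 of 2 stalk genes fell, and no paralog did. The stalk gene that fell was Rplp2, at -0.30 ± 0.0845 SE (limma adjusted p = 0.0418), with 15890 to 23867 in mixture and 23251 to 25708 in old control mice, whereas Rplp0 had 0.082 ± 0.0748 SE (adjusted p = 0.591). After quantile normalization Rplp2 had -0.029 (adjusted p = 0.875) and Rplp0 0.19 (adjusted p = 0.181), and 6 of 21 alternatives called Rplp2. As deposited, Rps6 had -0.0083 ± 0.134 SE (adjusted p = 0.982), Rpl22l1 -0.089 ± 0.089 SE (adjusted p = 0.634) and Rps27l -0.11 ± 0.0736 SE (adjusted p = 0.442). The Rps6 probe set read here is not the brightest that lists this gene. The 1300 other genes among the brightest had 266 falls and 3 rises with a median of -0.13, which became 10 falls and 10 rises with a median of -0.012 after quantile normalization. In the highest of the 5 bands, 15 of 22 members fell, with a median of -0.31, and so did 153 of 245 other genes, with a median of -0.29. After quantile normalization the medians in this band were -0.047 for the members and -0.0096 for the other genes. In the band below it, 4 of 9 members fell, with a median of -0.243, and 51 of 258 other genes did, with a median of -0.162. After quantile normalization these 2 medians were -0.067 and -0.019. The part of the common shift of bright genes in the members' values was not tested. Of 9 general neuronal markers, 5 fell, with summed signals of 134500 to 151100 in mixture and 157400 to 187600 in old control mice. After quantile normalization none of the 9 fell, with a median of -0.053 in place of -0.31. As deposited, 2 of 8 excitatory neuron, 0 of 7 interneuron and 1 of 6 oligodendrocyte markers fell. Rises were seen in 1 of 8 choroid plexus, 2 of 8 meningeal and 1 of 9 microglia markers. None of these passed after quantile normalization. The part of these cells in the members' values was not tested either.

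The count of members that fell with the mixture was smaller without some single mice, as was the count over all genes. It was 9 without mixture mouse 5, beside 1.06% of all genes, and 10 without mixture mouse 4, beside 2.07%. It was 10, 11 and 12 without old control mice 3, 5 and 4, beside 1.39%, 1.96% and 1.58% of all genes. The members' median lay between -0.32 and -0.23 over all single mice left out. Without both old control mice 3 and 5 (limma, 5 against 3 mice), and likewise with the β-actin ratio in the fit, 0% of all 13351 genes were called and so no member was. At an unadjusted p under 0.05, 23 members were lower and none higher without those mice, beside 9.22% and 6.85% of all genes, with a median of -0.21. With the β-actin ratio 11 were lower and none higher, beside 3.5% and 3.22%, with a median of -0.17. Of the 100 ribosomal probe sets that name several genes, 39 fell and none rose, beside 2.29% and 1.3% of all probe sets, and after quantile normalization 2 rose and none fell, beside 0.204% and 0.289%. Rpsa fell by 0.40 ± 0.106 SE (limma adjusted p = 0.034, and 0.156 after quantile normalization). Fau did not pass, at -0.20 ± 0.0848 SE (adjusted p = 0.198, and 0.961 after quantile normalization). Of 35 translation factors, 5 (14.3%) fell, beside the 3.16% of all genes. Eif5a, which helps the ribosome through proline runs, was among them at -0.39 ± 0.0686 SE (adjusted p = 0.00768). After quantile normalization no translation factor was called, and Eif5a had -0.12 (adjusted p = 0.186). Of 60 ribosome biogenesis genes, 1 rose and 1 fell with the mixture (1.67% each), beside 1.36% and 3.16% of all genes. Wdr12 rose by 0.35 ± 0.0888 SE (limma adjusted p = 0.0287, and 0.0886 after quantile normalization). Rpf2, which joins the 5S particle to the 60S subunit in yeast, fell by 1.72 ± 0.329 SE (adjusted p = 0.00917). With age Rpf2 rose by 1.66 ± 0.329 SE (adjusted p = 0.00124), a comparison that uses the same old control mice. Both changes of Rpf2 passed after quantile normalization.

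Against old control, α-tocopherol alone moved no member past the threshold as deposited or after quantile normalization (limma, smallest adjusted p 0.858 and 0.893), and it called 0% of the 13351 genes. At an unadjusted p under 0.05, 1 member was lower and none higher in each scaling, beside 2.75% lower and 2.89% higher of all genes as deposited and 2.8% and 2.55% after quantile normalization. No member had groups that did not overlap, beside 0.502% higher and 0.3% lower of all genes. The median over members was -0.062 as deposited and -0.017 after quantile normalization, and 34 of 43 values were negative as deposited. The smallest p belonged to Rps27l, at 2252, 2440, 2231, 2841 and 2371 in α-tocopherol mice, against 2909, 2667, 2489, 2617 and 2781 in old control mice. These groups overlapped, and the log2 fold change was -0.15 ± 0.0736 SE (limma adjusted p = 0.858). Rpl37 and Rpl35 had -0.20 ± 0.107 SE and -0.16 ± 0.0959 SE, and Rpl27, Rps27 and Rps4l had 0.075 ± 0.0644 SE, 0.16 ± 0.194 SE and 0.15 ± 0.22 SE, with adjusted p-values of 0.861 to 0.951. A missed threshold does not show that these levels were alike.

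The mixture and α-tocopherol diets, which differ in the γ form and also in the α dose (500 against 1000 mg/kg), did not differ past the threshold for any member (limma, smallest adjusted p 0.113 as deposited and 0.654 after quantile normalization), and 0% of all genes were called. At an unadjusted p under 0.05, 26 members were lower and none higher with the mixture as deposited, beside 5.57% and 3.15% of all genes, and 2 were lower and 1 higher after quantile normalization, beside 4.03% and 2.34%. All 5 mixture mice lay below all 5 α-tocopherol mice for 2 members, Rpl11 and Rpl41, and above them for none, beside 0.861% and 0.367% of all genes. After quantile normalization this held for 0 members below and 1 above, beside 84 and 34 of the 13351 genes. The median over members was -0.20 as deposited and -0.051 after quantile normalization. Rpl11, a 60S protein that binds Mdm2 with the 5S particle, had 11351 to 14494 in mixture and 15543 to 18280 in α-tocopherol mice, at -0.34 ± 0.0739 SE (limma adjusted p = 0.113). Rps29 and Rps28 had -0.40 ± 0.0886 SE and -0.38 ± 0.0909 SE (adjusted p = 0.113 and 0.133), and the smallest p among higher members belonged to Rpl12, Rpl22 and Rplp0, at 0.11 ± 0.116 SE, 0.049 ± 0.0706 SE and 0.048 ± 0.0748 SE (adjusted p = 0.855 to 0.91). Without α-tocopherol mouse 5, 10 members were called lower with the mixture, beside 0.682% of all genes, and none higher, beside 0.0674%.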

How the data were processed

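The deposited table holds linear intensity values per probe set, and the submitters' processing notes name GCOS without a version. The authors deposited these intensity values already scaled, since the 2% trimmed mean was 1000 on each array, and a change of total messenger RNA per cell is lost by such scaling. The sources used here do not describe the background step. Of 45037 probe sets that are not controls, 34945 carry 1 symbol in the platform annotation, 932 more than 1 and 9160 no symbol. The 60% with the highest mean of log2(signal + 16) were kept, a limit of 184 in signal, and each gene was read on its brightest probe set with 1 symbol. Of the tested members, 16 were read on _x or _s probe sets, which can bind other transcripts, so signal from near-identical copies is uncertain. For 8 tested members (Rpl12, Rpl14, Rpl37, Rpl39, Rps2, Rps25, Rps27 and Rps6) a probe set that names several genes was brighter than the one read.

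Differences were tested two-sided with limma 3.58.1 in R 4.3.3 (lmFit, contrasts, and eBayes with trend) on the 4 groups together, with Benjamini-Hochberg adjustment over 13351 genes and a threshold of 0.05. The number of arrays limits the precision. Adjusted p-values of single probe sets are over 27022 probe sets. Fold changes on the log2(signal + 16) scale understate dim genes. The fit was tested on simulated data. Alternatives were quantile, cyclic loess and median scaling, other pseudocounts, filters and probe set rules, the β-actin ratio, and leaving out mice. No arrays were identical. Members named were all those called (the 6 largest rises and falls where over 12), up to 3 smallest p where few were called, those called only after quantile normalization, the stalk genes, Rps6 and the paralogs. The members, gene lists and rule were chosen with earlier results of these data known. Mouse numbers were not used as pairs. Deviations of same-numbered mice correlated between -0.124 and 0.196 (median 0.0233), and those of other pairs between -0.227 and 0.186 (median -0.012). Values over 0.1 were found in 5 of 30 same-numbered and 7 of 120 other pairs, which does not settle whether the numbers pair samples.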

Additional observations from a re-analysis of the deposited data

Results flagged for a closer look

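One of 104 combinations of a named member and a group of 5 mice held a mouse far from the rest. Rps19 had a signal of 9188 in α-tocopherol mouse 5, against 12522 to 13877 in the other 4 α-tocopherol mice. About 1 in 20 such groups would stand out by chance.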

How the results depend on the processing

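With quantile normalization 8 members were called with age, with a median of 0.041, and 0 with the mixture against old control, with a median of -0.062, and the median of mixture against α-tocopherol was -0.051. With cyclic loess these were 11, 0.10, 0, -0.12 and -0.081. With age, the 8 calls were 6 rises and 2 falls, beside 12% and 9.06% of all genes. The 11 calls were 10 rises and 1 fall, beside 12.2% and 8.96%. With the mixture, 0.389% of all genes were called lower in each of these scalings, and 0.232% and 0.292% higher. Equal array medians moved the median of all genes to 0.11 with age, that of the members to 0.39, or 0.28 above all genes, and the share of calls that were higher to 87.3% from 54.5%; with the mixture that share was 5.01% in place of 30%, and 42.9%, 41.2% and 39.6% with cyclic loess, plain _at probe sets and the mean over probe sets.

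Plain _at probe sets, which left 18 members, gave 4 calls and a median of 0.068 with age, 1 and -0.13 with the mixture, and -0.055 for mixture against α-tocopherol. With age these were 2 rises and 2 falls, beside 9.62% and 10.4% of all genes. With the mixture the call was 1 fall, beside 1.22% of all genes that fell. The β-actin ratio as a covariate gave 5 calls with age, and 0, of any gene, with a median of -0.17 with the mixture. The 5 were 4 rises and 1 fall, beside 4.75% and 3.92% of all genes. The mixture count was 11 with no filter, 10 with the mean over probe sets and 12 from the arrays of both groups alone. All of these were falls, beside 1.65%, 1.29% and 1.87% of all genes that fell. Leaving out old control mice 3 and 5, chosen after seeing the data, gave 11 with age and 0, of any gene, with the mixture. The 11 were 9 rises and 2 falls, beside 8.92% and 6.45% of all genes. Leaving out single mice gave 22 to 26 calls with age (medians 0.24 to 0.30), 0 with α-tocopherol (-0.10 to -0.02), 9 to 22 with the mixture (-0.32 to -0.23) and 0 to 10 for mixture against α-tocopherol (-0.25 to -0.16). With age 20 to 25 were rises, beside 10.2% to 12.1% of all genes, and 1 or 2 were falls, beside 7.78% to 9.54%. The other calls were all falls, beside 1.06% to 3.01% of all genes with the mixture and 0% to 0.682% for mixture against α-tocopherol. With mouse number as a replicate block, 28 members were called with age, 23 with the mixture and 0 in the other comparisons. With age these were 26 rises and 2 falls, beside 13.1% and 11.4% of all genes. With the mixture all were falls, beside 3.58% of all genes that fell.

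Named members turned sign as follows. With age, Rps7 was -0.17 with quantile and -0.067 with cyclic loess normalization, Rplp2 -0.0082 with quantile normalization, Rpl22l1 0.11 with equal medians and 0.055 without old control mouse 1 (-0.076 to 0.055 over single mice left out), Rps3 -0.11 with the mean over probe sets, and Rpl35 -0.0047 on plain probe sets. With the mixture, Rpl22l1 was 0.044, 0.047 and 0.0032 with quantile, with cyclic loess and without old control mice 3 and 5, and Rps6 0.050 with β-actin and above 0 without old control mouse 2, 4 or 5 or mixture mouse 4 or 5 (0.032, 0.038, 0.0082, 0.006 and 0.049; -0.066 to 0.049 over single mice left out). For mixture against α-tocopherol, Rpl22 was -0.0014, -0.043, -0.21 and -0.015 with equal medians, mean, plain probe sets and without α-tocopherol mouse 3 (up to 0.10 over single mice left out), and Rplp0 -0.0028 with equal medians and -0.0018 without mixture mouse 3 (up to 0.090). For α-tocopherol against old control, Rpl27 was -0.049 with the mean and Rpl35 0.0045 with β-actin. Over the alternatives the adjusted p lay between 0.00124 and 0.0454 for Rps27l, 0.000243 and 0.0443 for Rpl13a, 0.000953 and 0.176 for Rps19, 0.000187 and 0.682 for Rps3, and 0.000203 and 0.986 for Rpl35 with age. The causes were not tested.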
